A study of Mus musculus with 26 samples.

Results

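The genes described here are 9 regulators and markers of the primitive endoderm: the transcription factors Gata4, Gata6, Sox7, Sox17, Foxa1, Foxa2 and Foxq1, the receptor Pdgfra and the adaptor protein Dab2. They were chosen by name from a set of 21951 protein-coding genes, and their values are not part of the rule that defines them. Earlier results of these data were, however, known when they were chosen. Each was looked up by its Ensembl identifier in an RNA-seq table of 2189 genes. Accessible regions and dynamic enhancers were then collected within 100 kb of each gene on GRCm38. All samples are E14 cells, an established line of mouse embryonic stem cells grown without feeders in serum. In the state mESC+, the cells received fresh medium with leukemia inhibitory factor (LIF) for 4 h. In the state mESC-, LIF was withdrawn for the same 4 h and retinoic acid (RA) was given at 1 µM, so that the effects of losing LIF and of gaining RA cannot be told apart. RNA-seq was done on 3 biological replicates per state. ATAC-seq, which marks accessible DNA by the insertion of a transposase, was done on 75000 cells per state in 1 library each. The enhancer predictions rest on 3 histone modifications (H3K4me1, H3K4me3 and H3K27ac) and an input, with 1 library each per state.

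The primitive endoderm is the layer of the blastocyst that faces the cavity and later forms the parietal and visceral endoderm of the yolk sac. Its cells are sorted out from the epiblast, the source of embryonic stem cells, by FGF signalling and by mutual repression between GATA6 and NANOG. GATA6 acts early in this sequence and GATA4, SOX17 and SOX7 follow, while PDGFRA marks the cells at the surface and DAB2 serves their endocytic function. RA acts through nuclear receptors that bind paired recognition sites in the DNA, and it has long been used to push pluripotent cells towards endoderm-like or neural fates. The question put to the data was which of these genes are marked by a change after only 4 h.

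The cells are labelled as stem cells, and of 6 pluripotency markers all but Esrrb had an ATAC-seq peak within 1 kb of the gene start in both states. Such a peak was also found for 67.7% of all protein-coding genes in mESC+ and 66.4% in mESC-, so it does not tell the cell type. With 1 ATAC-seq library per state there is no replicate check and no test for any difference in accessibility. Sequencing depth is unknown, since the peak lists hold only regions above the peak caller's threshold. A region without a peak is therefore called "not listed" here and may still be accessible. The lists differed in length, with 163484 peaks in mESC+ and 141465 in mESC-. Of the mESC+ peaks, 26.1% had no overlapping peak in mESC-, whereas 14.1% of the mESC- peaks had none in mESC+. The height of a peak is given as fold enrichment over the local background, and as a percentile among all peaks of the same list because the scales of both libraries need not be equal. Many fold enrichments share the same few values, and 32.4% of the mESC+ peaks and 29.8% of the mESC- peaks lie on a common grid. In mESC+, the frequent values 5.05 and 5.62 sit at percentiles 26.3 and 36.3, and in mESC- the frequent values 5.33 and 5.93 sit at percentiles 30.1 and 40.5. For these peaks, a single step of the grid moves a low peak by about 10 points.

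Gata6, Sox7 and Foxa1 were listed in the RNA-seq table, and Gata4, Sox17, Foxa2, Foxq1, Pdgfra and Dab2 were not. The table holds no gene with an adjusted p-value above 0.1, so a listed gene passed that limit in the authors' comparison of the states. The members thus gave 3 listed genes of 9, or 33.3%, beside 9.04% of all protein-coding genes. With only 9 genes, chosen by name, this difference was not tested. A gene without a row may have been unchanged, too weakly expressed or removed by a filter, and these cases cannot be told apart. In bulk samples, fewer cells expressing a gene and less RNA per cell cannot be told apart either. The direction and size of the changes are not given here.

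The listed members were expressed at a low level. The authors' mean of the normalized counts over all 6 libraries was 54.1 for Gata6, 73.8 for Sox7 and 73.7 for Foxa1. Divided by the summed exon length of the gene, the level was 8.31 per kb for Gata6, 22.4 per kb for Sox7 and 22.2 per kb for Foxa1. On the same scale, the listed pluripotency genes Klf4, Sox2 and Zfp42 stood at 934, 3971 and 9813 per kb. Among the 2188 listed genes of any type that matched the annotation, Gata6 lay at percentile 7.31 of the level per kb. Foxa1 lay at 16.6 and Sox7 at 16.8. Sox7 and Foxa1 were nearly equal, and Gata6 was the lowest of the 3. No spread can be attached to these means, because the table holds no value per library.

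None of the 9 genes had a dynamic enhancer within 100 kb, beside 4.54% of all protein-coding genes. A dynamic enhancer is a region whose enhancer probability, computed by the CRUP random forest from the histone modifications, differed between the states in the authors' permutation test. The list holds 327 of them, 186 with the higher probability in mESC+ and 141 with the higher probability in mESC-. The paper reports these counts at its default minimum difference between the states. With a smaller minimum difference it reports many more regions, which it calls less reliable and which were not examined here. The count for the endoderm genes was also 0 within 20 kb and within 500 kb, where 1.67% and 16.5% of protein-coding genes had one. All regions therefore lie outside the window. The nearest was 1.72 Mb from Dab2 (chr15:8160901-8163100), and went from 0.98 in mESC+ to 0.0328 in mESC-. The next one was 2.61 Mb from Foxq1, close to Sox4, with 0.96 in mESC+ and 0.14 in mESC-. For Foxa2, a region at 5.53 Mb went from 0.0075 in mESC+ to 1 in mESC-. This was the only one of the nearest regions with a higher probability in mESC-. Those of the other 6 genes lay between 5.66 Mb (Pdgfra) and 21.9 Mb (Foxa1) away. At such distances these regions are given as positions only and not as regulators of the genes.

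Accessible regions were found around every member, and most were listed in both states. The 9 windows, each spanning the gene and 100 kb on either side, held 168 peaks in mESC+ and 150 in mESC-. A single window held between 11 (Gata6) and 27 (Pdgfra) peaks in mESC+ and between 12 (Sox7) and 24 (Gata4) in mESC-. Over all protein-coding genes, such windows held a median of 26 peaks in mESC+ (quartiles 14 and 37) and 22 in mESC- (12 and 32). Of the 168 peaks near the members in mESC+, 70 were intergenic, 54 lay in another gene, 31 in an intron and 13 at an exon of the member itself. In mESC-, 68 were intergenic, 46 lay in another gene, 23 in an intron and 13 at an exon of the member. The member was the gene with the nearest protein-coding start for 100 of the peaks in mESC+ and for 89 in mESC-. The windows of Gata4 and Sox7 also contain 3 other protein-coding starts each, while those of Gata6 and Foxa2 contain none.

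**Figure D1:**
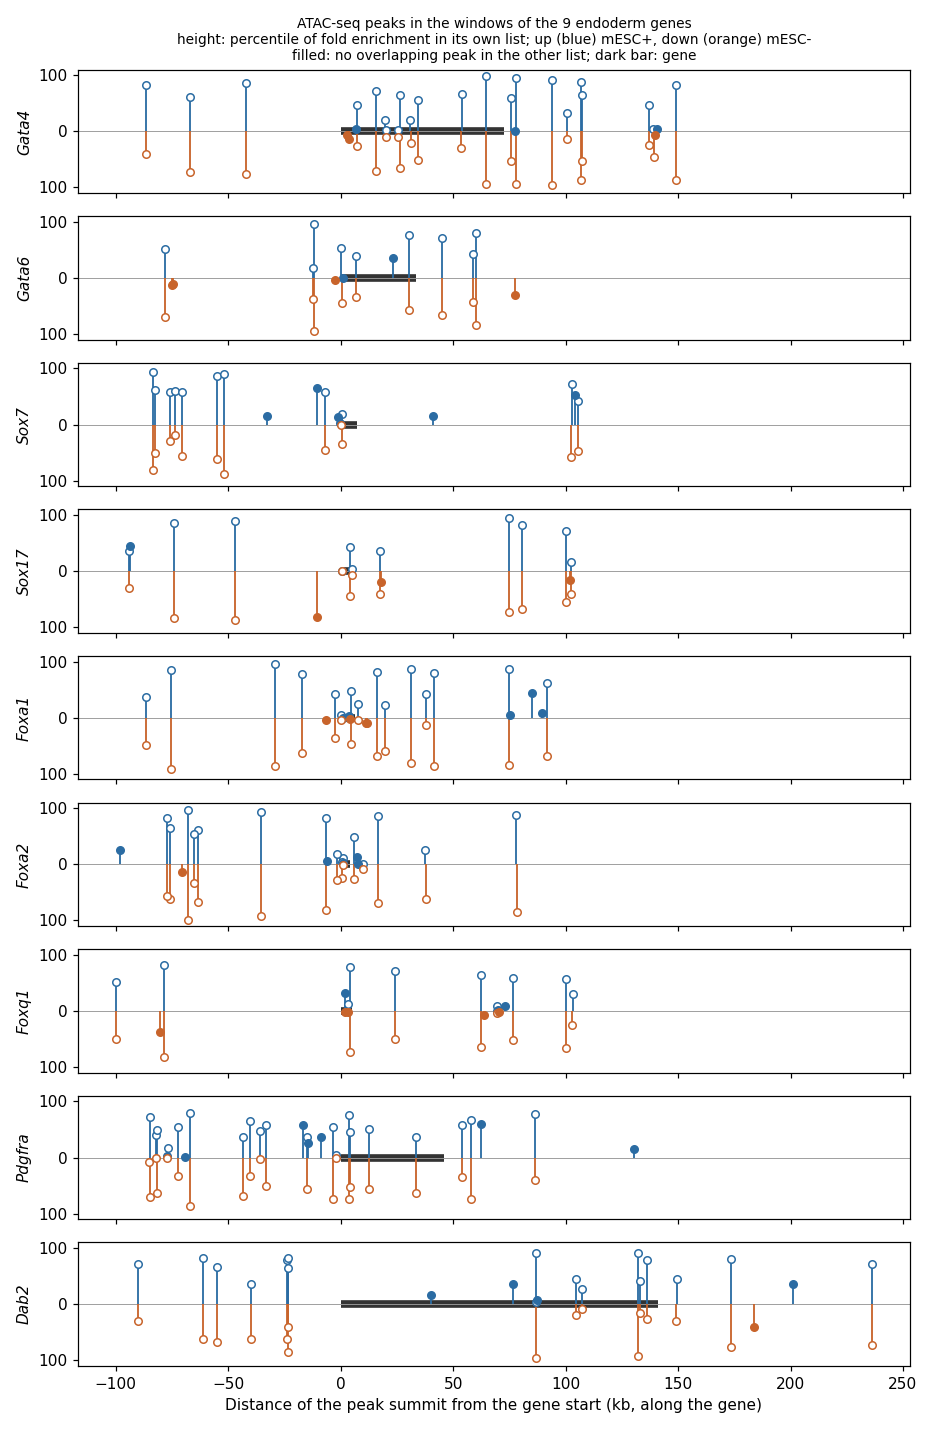
ATAC-seq peaks around the 9 genes, with the distance of the summit from the gene start on the x axis (kb, positive in the direction of transcription) and the percentile of the fold enrichment within its own list on the y axis, upwards for mESC+ and downwards for mESC-. Filled circles are peaks without an overlapping peak in the other list, the dark bar is the gene, and most tall peaks are open circles in both directions, with the filled mESC- peak 10.6 kb upstream of Sox17 as the tallest exception.

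The share of peaks listed in only 1 state differed between the members. Of the 168 peaks in mESC+, 38 (22.6%) had no counterpart in mESC-, and of the 150 peaks in mESC-, 21 (14%) had none in mESC+, both close to or below the shares over the whole lists. Over the whole lists, these shares were 26.1% in mESC+ and 14.1% in mESC-. Sox7 and Pdgfra showed the largest imbalance. Around Sox7, 6 of 17 mESC+ peaks had no counterpart and none of the 12 mESC- peaks was without one. Around Pdgfra, this was the case for 7 of 27 mESC+ peaks (25.9%, near the whole-list share) and for none of the 21 mESC- peaks. Gata6 and Sox17 leaned the other way. Around Gata6, 2 of 11 mESC+ peaks and 4 of 13 mESC- peaks stood alone, and around Sox17 it was 1 of 12 and 3 of 14. Around Foxq1, it was 4 of 14 in mESC+ (28.6%, near the whole-list share) and 5 of 14 in mESC- (35.7%). The counts per gene are small and come from 1 library per state, and most of these peaks were weak. Of the 38 peaks found only in mESC+, 25 lay at or below percentile 20 of their list, as did 17 of the 21 found only in mESC-. Over the whole lists, this was the case for 18398 of 42631 and for 10465 of 19885 such peaks.

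**Figure D2:**
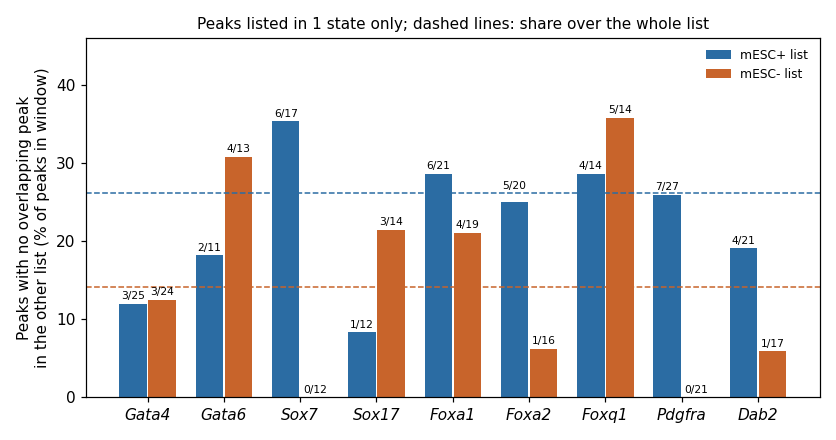
Share of the peaks in each window that had no overlapping peak in the other list (y axis, percent), for mESC+ (blue) and mESC- (orange), with the counts above the bars. The dashed lines are the shares over the whole lists, 26.1% for mESC+ and 14.1% for mESC-, and the mESC- bars of Sox7 and Pdgfra are at 0.

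Gata6 encodes the zinc finger factor that starts the endoderm program (chr18:11052064-11085635, plus strand). Its highest peak lay 11.9 kb upstream of the gene start, with a fold enrichment of 15.9 in mESC+ and 14.9 in mESC-. These values correspond to percentiles 95.5 and 95.1, so the strongest accessible region near Gata6 ranked nearly alike in both lists. The peak at the gene start, with its summit 0.35 kb inside the gene, went from a fold enrichment of 6.91 to 6.15 (percentiles 54.1 and 44.4). An intronic peak at 30.2 kb stood at percentile 77.5 in mESC+ and 56.3 in mESC-. This was the only one of the 9 shared peaks of Gata6 that differed by 20 points or more. Over all shared peaks, 8.69% were higher and 14.7% lower in mESC- by as much. The 4 peaks listed only in mESC- were weak, the highest of them 77.7 kb downstream of the start at percentile 30.1. The higher of the 2 peaks listed only in mESC+ lay in an intron at 23.3 kb, at percentile 36.3.

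Gata4 encodes a related factor that acts after Gata6 (chr14:63198922-63271692, minus strand). It had some of the highest peaks among the members. An intronic peak 64.4 kb inside the gene (chr14:63207128-63207372) reached a fold enrichment of 18 in mESC+, at percentile 98, and 14.1 in mESC-, at percentile 93.4. A peak in the neighbouring gene Fdft1, 93.8 kb from the Gata4 start, ranked at percentiles 92.4 and 95.7. No peak was found within 1 kb of the outermost start of Gata4 in either list. The gene has 2 annotated internal starts about 26.4 kb further in, and both were covered by a peak with a fold enrichment of 8.21 in mESC+ and 7.97 in mESC- (percentiles 65.2 and 64.9). The largest difference downwards was found at an intergenic peak 86.5 kb upstream, which stood at percentile 82.7 in mESC+ and 40.5 in mESC-. The largest difference upwards, from percentile 3.91 to 46.3, lay in Ctsb at 139 kb. None of the 6 Gata4 peaks listed in 1 state only exceeded percentile 13.6.

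Sox17 and Sox7 encode HMG box factors of the same SOX subgroup, which take part in endoderm differentiation. Sox17 (chr1:4490931-4497354, minus strand) had the most prominent region listed only in mESC-. This intergenic peak of 158 bp (chr1:4507865-4508022) lay 10.6 kb upstream of the gene, with a fold enrichment of 10.7, a -log10 q of 16.2 and a percentile of 82.1. The nearest mESC+ peak was 11131 bp away. Of the 28293 mESC- peaks above percentile 80, only 38 (0.134%) had no counterpart in mESC+, and no other member had one of them. By contrast, Sox7 (chr14:63943673-63950732, plus strand) had the highest region listed only in mESC+. This peak of 168 bp (chr14:63933219-63933386) lay 10.4 kb upstream of Sox7, with a fold enrichment of 8.24 and a percentile of 65.4, and 3060 bp from the nearest mESC- peak. Both sequences are shown on the plus strand of GRCm38 in lower case, since neither contains any of the motifs searched here.
Sox17 region listed only in mESC-: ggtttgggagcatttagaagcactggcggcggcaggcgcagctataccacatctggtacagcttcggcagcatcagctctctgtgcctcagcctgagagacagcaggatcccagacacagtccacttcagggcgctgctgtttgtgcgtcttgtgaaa
Sox7 region listed only in mESC+: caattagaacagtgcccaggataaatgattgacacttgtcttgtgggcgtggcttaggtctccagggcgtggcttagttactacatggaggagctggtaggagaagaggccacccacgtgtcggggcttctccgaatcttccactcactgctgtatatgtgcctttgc
The GC content was 57.0% in the Sox17 region and 52.4% in the Sox7 region, and neither holds a base that is masked as a repeat in the genome file.

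Of the 11 shared peaks around Sox17, 7 ranked lower in mESC- and 4 higher. The share that ranked higher was 36.4%, beside 42.1% of all shared peaks. The strongest mESC+ peak, 74.7 kb downstream of the start, is nearer to the start of Rp1. It had a fold enrichment of 15.7 at percentile 95.0 and stood at percentile 71.9 in mESC-. In mESC-, the strongest peak lay 46.9 kb upstream with a fold enrichment of 11.7, at percentile 86.5 and, in mESC+, at percentile 88.7. A broad peak over the gene body of Sox17, which covers 2 internal starts, stood at percentiles 42.5 and 43.9. Around Sox7, 9 of 11 shared peaks ranked lower in mESC-, beside 69955 of all 120853 shared peaks. The median difference was -13.1 points, whereas the median over all shared peaks was -2.11 points. Most of the 11 peaks have Pinx1 or Prss51 as the nearest protein-coding start. The only ones nearest to Sox7 lay 7.19 kb upstream (percentiles 58.8 and 45.1) and just inside the gene. The strongest mESC+ peak of Sox7, at 83.4 kb upstream, went from percentile 94.2 to 81.2. Several peaks lie in the neighbouring gene Pinx1, among them one 73.8 kb upstream with 59.6 in mESC+ and 18.9 in mESC- and one 51.7 kb upstream with 91.0 and 87.5. The peak just inside Sox7 moved in the opposite direction, with a fold enrichment of 4.61 in mESC+ and 5.59 in mESC- (percentiles 18.9 and 34.9). Sox7 also had 2 weak mESC+ peaks just upstream of its start, at percentiles 14 and 2.30, without a counterpart in mESC-. The windows of Gata4 and Sox7 lie on the same chromosome but do not overlap.

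Foxa2 and Foxa1 encode forkhead factors that can bind nucleosomal DNA and that are active in definitive endoderm as well. The region with the highest percentile of any member peak, reached in mESC-, lay 67.8 kb upstream of Foxa2 (chr2:148042877-148046969, minus strand). Its fold enrichment was 16.9 in mESC+ and 18.8 in mESC-, at percentiles 96.8 and 99.1. The mESC- peak (chr2:148114704-148114930) is shown on the plus strand because it ranked highest of all 318 member peaks. It holds none of the motifs searched, so it has no capitals.
Foxa2 upstream region: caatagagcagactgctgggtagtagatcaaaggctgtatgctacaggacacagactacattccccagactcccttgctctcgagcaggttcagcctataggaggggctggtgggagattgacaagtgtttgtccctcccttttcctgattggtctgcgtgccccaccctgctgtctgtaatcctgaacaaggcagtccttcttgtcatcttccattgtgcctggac
A second upstream peak of Foxa2, at 35.5 kb, ranked at percentiles 93.5 and 92.4, so that its rank was nearly equal in both lists. The largest differences of Foxa2 were 26.3 against 62.4 at a peak 37.7 kb downstream and 81.8 against 56.3 at a peak 77.0 kb upstream, in mESC+ and mESC- respectively. Near the gene start, the fold enrichment was 4.23 in mESC+ and 5.07 in mESC- (percentiles 11 and 24.6). These values belong to different peaks, with summits 0.90 and 0.56 kb inside the gene.

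Foxa1 (chr12:57540628-57546916, minus strand) was listed in the RNA-seq table, but the peak at its start was weak and hardly differed. The fold enrichment was 3.79 in mESC+ and 3.78 in mESC- (percentiles 4.78 and 4.34), with summits 43 and 33 bp upstream of the start. The strongest mESC+ peak of Foxa1 lay 29.2 kb upstream in Ttc6, with a fold enrichment of 16.6, and went from percentile 96.4 to 86.6. The strongest mESC- peak, 75.3 kb upstream, had a fold enrichment of 13 and went from percentile 84.9 to 90.8. A peak 19.8 kb downstream of the start stood at 23.7 in mESC+ and 60.1 in mESC-. Among the Foxa1 peaks listed in 1 state only, the highest was a mESC+ peak in Mipol1 at percentile 44.8. Foxq1 (chr13:31556134-31560976, plus strand), a forkhead gene with less defined roles in this lineage, had its strongest peak 78.7 kb upstream at percentiles 82.7 and 81.3. A peak in its exon, 3.94 kb from the start, ranked at 79.2 in mESC+ and 73.9 in mESC-. Of the peaks around Foxq1, only 2 in mESC+ and 3 in mESC- had Foxq1 as the nearest protein-coding start, as Foxf2 and A530084C06Rik lie in the same window.

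Pdgfra encodes the receptor for platelet-derived growth factor A and is used to sort primitive endoderm cells (chr5:75152292-75198215, plus strand). No peak was listed within 1 kb of its outermost start. An internal start at 3.61 kb was covered by a peak with a fold enrichment of 9.88 in mESC+ and 9.35 in mESC- (percentiles 76.2 and 74.7). The strongest peak lay 67.0 kb upstream at percentiles 79.1 and 85.6, nearer to the start of Gsx2. Pdgfra was the nearest protein-coding start for 17 of the 27 mESC+ peaks and 12 of the 21 mESC- peaks. Of the 20 shared peaks in the Pdgfra window, 4 (20%) were higher by at least 20 points in mESC- and 6 (30%) were lower. Over all shared peaks, these shares were 8.69% and 14.7%. A peak 43.5 kb upstream, also nearest to Gsx2, went from 36.3 to 69.2. By contrast, one 35.7 kb upstream, nearest to Pdgfra, went from 46.8 to 2.84. The mESC+ peaks without a counterpart reached percentile 57.5 at 16.8 kb upstream and 60.4 at 62.4 kb downstream. Pdgfa, which encodes the ligand, was listed in the RNA-seq table with an authors' mean of 1686, or 541 per kb, while the receptor was not listed.

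Dab2 (chr15:6299788-6440712, plus strand) encodes a clathrin adaptor that visceral endoderm needs for endocytosis. Its outermost start had no peak nearby, and the closest one lay 23.2 kb upstream at percentiles 83.1 and 84.7. The strongest Dab2 peak instead covered 5 internal starts about 87 kb inside the gene. The fold enrichment was 13.8 in mESC+ and 15.4 in mESC-, at percentiles 91.2 and 96.0. The RefSeq promoter at this place (GRCm38.p6, chr15:6386498-6386797, plus strand) is shown because the accessible region of the gene lies here in both states. It covers 250 bases before the RefSeq start in lower case and 50 bases from it in capitals, with a GC content of 59.3%.
Dab2 internal promoter: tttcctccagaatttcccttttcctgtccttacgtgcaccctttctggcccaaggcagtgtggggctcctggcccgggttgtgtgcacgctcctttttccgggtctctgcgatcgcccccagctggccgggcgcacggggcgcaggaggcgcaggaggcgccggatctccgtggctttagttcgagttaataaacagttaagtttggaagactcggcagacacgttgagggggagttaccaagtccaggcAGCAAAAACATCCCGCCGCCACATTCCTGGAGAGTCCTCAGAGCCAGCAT
The second RefSeq promoter of Dab2, at the outermost start, had a GC content of 37.7% and no peak in either list.

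The Dab2 window also held the only mESC- peak near a member that contained an RA response element (RARE). RAREs are direct repeats of the nuclear receptor site AGGTCA or a close variant of it, spaced by 5 or 2 bases, and both strands were searched without mismatch. This peak of 137 bp (chr15:6483672-6483808) was not listed in mESC+. Its fold enrichment was 5.93 at percentile 40.5, and the nearest mESC+ peak was 10063 bp away. It lies in the gene C9, whose start is closer to it than that of Dab2, and 184 kb downstream of the Dab2 start. The plus strand is shown, and the capitals mark the element at chr15:6483736-6483752, which reads AGTTCAACTTTAGGTCA on the minus strand.
Peak in C9 listed only in mESC-: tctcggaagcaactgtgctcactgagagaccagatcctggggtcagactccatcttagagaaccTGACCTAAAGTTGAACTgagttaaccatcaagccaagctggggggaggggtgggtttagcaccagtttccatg
Of its bases, 42.3% are masked as repeats in the genome file. Of the 17 shared peaks in the Dab2 window, 10 ranked lower and 7 higher in mESC-. The share that ranked higher was 41.2%, near the 42.1% of all shared peaks. Most of the 17 have C9 or Fyb as the nearest protein-coding start. The largest difference downwards was found in an intron at 136 kb, with percentile 78.7 in mESC+ and 25.9 in mESC-, followed by a peak 90.3 kb upstream with 70.9 and 30.1.

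When the strongest peak at each gene start was compared, no member was called different between the states, but this depended on the peaks chosen. Within 1 kb of the outermost start, 5 of 9 members had a peak in each list, namely Gata6, Sox7, Sox17, Foxa1 and Foxa2. Of all protein-coding genes, 67.7% had such a peak in mESC+ and 66.4% in mESC-. A start was called different when it had a peak in only 1 list or when the percentiles differed by at least 20 points, and this was the case for 0 of the 5 members and for 11.4% of all genes with a peak at the start. The strongest start peak of Sox7 differed by 16.1 points. For Foxa2, the strongest start peaks of the lists are different peaks and differ by 13.6 points. Matched by overlap, the Foxa2 start peak at 0.60 kb stood at percentile 4.25 in mESC+ and 24.6 in mESC-, a difference of 20.4 points that meets the limit, and the one at 0.90 kb at 11 and 0.84. Sox7 was called as listed in mESC+ only when the window ran from 250 bp before to 50 bp after the start, and Foxq1 as higher in mESC+ (31.8 against 1.96) when it ran to 2 kb. By fold enrichment, the start peaks of the members ranked low. Their median percentile was 11 in mESC+ and 24.6 in mESC-, beside 79.1 and 78.3 over all protein-coding genes with such a peak. Ranked by the p-value of the peak, all 5 stood higher. Gata6 was then at percentiles 73.0 and 69.3, Sox7 at 31.1 and 39.1, Sox17 at 23.2 and 9.19, Foxa1 at 31.0 and 28.6 and Foxa2 at 35.3 and 52.1, in mESC+ and mESC- respectively. When every annotated transcript start was counted, an alternative added once the data had been seen, 8 members had a start peak in each list and none was called. The 3 genes added in this way were Gata4, Pdgfra and Dab2.

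**Figure D3:**
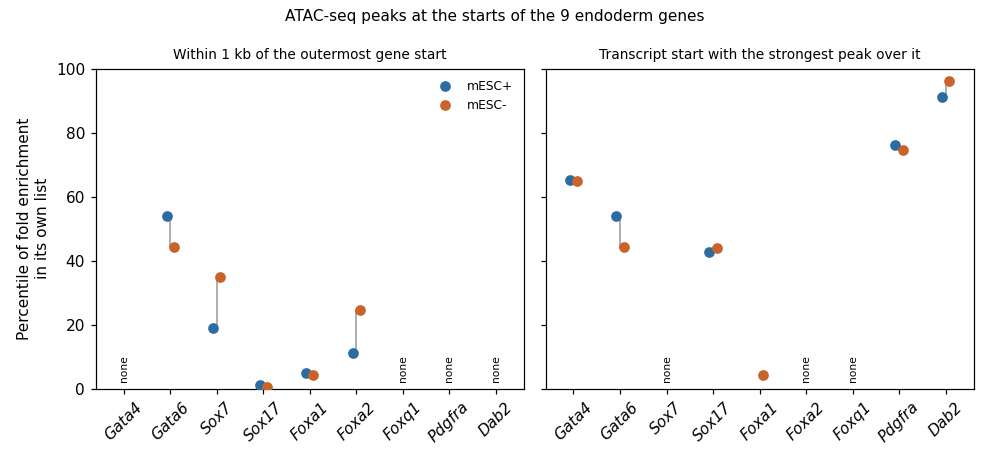
Percentile of the fold enrichment (y axis) of the peak within 1 kb of the outermost start (left) and of the strongest peak that covers an annotated transcript start (right), for each of the 9 genes in mESC+ (blue) and mESC- (orange). Genes without a peak are marked "none", and the largest values on the right are those of the internal Dab2 start, 91.2 and 96.0.

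Over all windows, 130 mESC+ peaks overlapped a mESC- peak, and their ranks were compared. Of these pairs, 47 ranked higher and 83 lower in mESC-, with a median difference of -2.95 points. Over all 120853 shared peaks, 50897 ranked higher and 69955 lower, with a median of -2.11 points. A difference of at least 20 points upwards was seen for 12 member pairs (9.23%), beside 8.69% of all pairs. Downwards, it was seen for 26 member pairs (20.0%), beside 14.7% of all pairs. Of these 26 pairs, 6 each lay near Dab2 and Pdgfra, 4 near Gata4, 3 each near Sox7 and Foxa2, and 1 each near the other 4 genes. For Dab2, the median difference was -14.7 points over 17 pairs, and for Gata6 it was -0.39 points over 9 pairs. The upper left points for Dab2 (3.01 to 96.0) and Foxq1 (12.3 to 73.9) are small mESC+ peaks that overlap a broader mESC- peak, which is also the partner of a stronger mESC+ peak. Among the pairs in which each peak met only 1 partner, 10 (8.20%, beside 7.15% of all such pairs) were higher and 26 (21.3%, beside 15.5%) lower by at least 20 points. Among peaks with a -log10 q of at least 10, 1 pair was higher and 1 lower by as much. The number of pairs left by this cut and the share over all such pairs are not given here. These counts therefore do not tell whether the share changed.

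**Figure D4:**
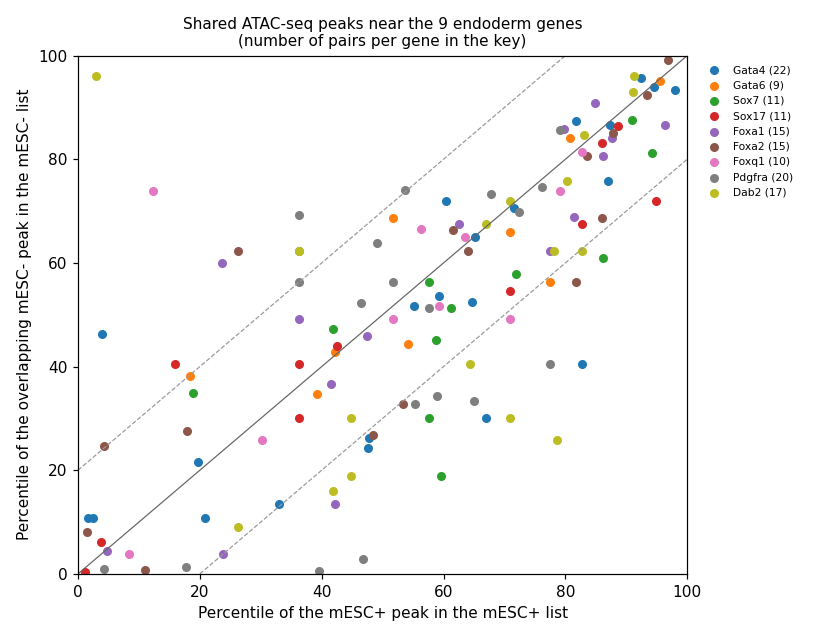
Percentile of each shared peak in the mESC+ list (x axis) and of the overlapping peak in the mESC- list (y axis), coloured by gene with the number of pairs. The solid line marks equal ranks and the dashed lines a difference of 20 points, and 26 of the 130 points lie below the lower dashed line and 12 above the upper one.

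The binding motifs of the factor families were searched in 300-bp windows around the summits, on both strands. The motif of GATA factors (AGATAA) was found in 22 of 168 member windows in mESC+ (13.1%, beside 10.8% of all windows) and in 22 of 150 in mESC- (14.7%, beside 10.6%). The forkhead motif (GTAAACA) occurred in 6 member windows in mESC+ (3.57%, beside 3.90%) and in 10 in mESC- (6.67%, beside 3.83%). The SOX motif (ACAAAG) occurred in 37 windows (22.0%, beside 25.2%) and in 36 windows (24%, beside 24.8%). The octamer of the pluripotency factor OCT4 (ATGCAAAT) was found in 2 windows in each state (1.19% and 1.33%, beside 2.78% and 2.92%), near Sox7 and Pdgfra. A RARE was found in 1 window in each state, near Pdgfra in mESC+ and near Dab2 in mESC- (0.595% and 0.667%, beside 0.597% and 0.941%). The Pdgfra match lies outside the peak itself. RefSeq promoters were matched for 4 members (Foxa1, Foxa2, Pdgfra and Dab2) with 7 promoters in all. A GATA motif was present in 1 Foxa2 and 1 Dab2 promoter (11.2% of all promoters), a forkhead motif in that of Foxa1 (3.65%) and a SOX motif in that of Foxa1 and 1 of Foxa2 (18.7%). None of the 7 held the octamer or a RARE (1.74% and 0.365% of all promoters). A match is a string in the reference and no sign of binding.

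The wider endoderm program was followed in a list of 30 other genes. Of these, 9 (30.0%) were listed in the RNA-seq table, beside 9.04% of all protein-coding genes. Among them were the regulators Eomes and Otx2, the basement membrane genes Lama1, Lamc1 and Col4a1, the ligand Pdgfa, the parathyroid hormone receptor Pth1r and the retinol transporter Stra6. The level per kb of these named genes ranged from 14.6 (Stra6) to 2527 (Lamc1), above that of Gata6 (8.31). A dynamic enhancer within 100 kb was found for 3 of the 30, beside 4.54% of all protein-coding genes. The one in Lrp2, an endocytic receptor that works together with Dab2, went from a probability of 0.902 in mESC+ to 0.048 in mESC-. Regions with the higher probability in mESC- lay 61.4 kb from Stra6 (0 and 0.872) and 66.9 kb from Serpinh1 (0.009 and 0.9). Stra6 was the only gene of both lists that was listed in the RNA-seq table and had a dynamic enhancer in its window. At the gene start, 7 of the 25 genes with a peak met the call, beside 11.4% of all genes with a peak at the start. Among them, Cubn, Sparc and Cer1 had a start peak only in mESC+, at percentiles 54.8, 19.5 and 8.47. Pth1r had one only in mESC-, at percentile 15.3. Gsc went from percentile 60.8 in mESC+ to 26.6 in mESC- and Serpinh1 from 59.1 to 34.4. The difference from the 0 members called by the same comparison was not tested.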

How the data were processed

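Per the labels, RNA-seq (3 libraries per state), ATAC-seq (1) and ChIP-seq (4 per state used, 10 libraries of other marks not used) come from E14 cells. For RNA-seq, the authors aligned reads with BWA to GRCm38 and ran DESeq2. Their deposited table gives a mean normalized count signal over 6 libraries, and further columns of their own comparison (log2 fold change, its error, a test statistic, p-value and adjusted p-value). These were neither used nor printed, except that the adjusted p-value was read for its upper limit (0 of 2189 genes above 0.1). For ATAC-seq, the authors used BWA, SAMtools and MACS2, whose parameters are not given in the sources used here. The deposited peak lists hold fold enrichments (a ratio) and -log10 p and q values. For enhancers, the authors aligned with STAR 2.5.1b, and the deposited list gives an enhancer probability (a fraction) per state, a p-value and a cluster, of which only positions and probabilities were used.

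Of 2189 identifiers, 2188 matched GENCODE. Windows were the gene body and 100 kb. Peaks were shared at an overlap of at least 1 bp, each mESC+ peak being paired with its strongest partner. Alternatives were -log10 q of at least 10, the top 50000 peaks, other windows, a reciprocal overlap of 50%, ranks by p and 1 mismatch in RAREs. The overlap, start and motif functions were tested on simulated data. Named were all members, the highest peak and highest peaks of 1 list only per member, and other endoderm genes with a start call or dynamic enhancer. The result of 1 of these genes is not reported here. Beyond this rule, the listed genes, the most changed shared peaks and the RARE peak were named after their values were seen. Members and lists were chosen with earlier results of these data known. Sequences come from GRCm38.p6 and RefSeq. Python 3.11.15, NumPy 2.4.6, pandas 2.3.3, SciPy 1.17.1 and matplotlib 3.10.9 were used.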

Additional observations from a re-analysis of the deposited data

How the results depend on the processing

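No paired analysis was possible because per-library RNA-seq values are not in the table and each state has a single ATAC-seq library. Leaving out a replicate was equally impossible. Of 48 alternatives, 27 moved a count by over 1.5 times and 21 did not, of which 5 are counts of 0 that stayed at 0 and say nothing about stability. The number of members with a dynamic enhancer stayed at 0 in all windows, with the list at the paper's default minimum difference only. The counts of peaks near the members depend on threshold and window by construction. Starting from 168 peaks in mESC+, 77 had a -log10 q of at least 10, 50 were among the top 50000, 80 lay within 20 kb and 100 were nearest to the member. In mESC-, the 150 peaks became 57, 49, 67 and 89. For the q limit and the top 50000, both lists were cut before peaks without a counterpart were counted anew. These counts include peaks whose partner fell below the cut, so they are not subsets of the 38 and 21. In mESC+, the count went from 38 to 13 with the top 50000, 22 within 20 kb and 25 nearest to the member. In mESC-, the count went from 21 to 6 with the q limit, 12 with the top 50000 and 11 within 20 kb. With the q limit, 1 shared peak was at least 20 points higher and 1 lower, out of a smaller number of pairs that is not given here. The 5 members with a start peak became 2 in mESC+ and 1 in mESC- from 250 bp before to 50 bp after the start, 1 and 1 with the q limit and 8 and 8 with any transcript start. The start call, met by 0 members, was met by 1 in the narrow window (Sox7, listed in mESC+ only) and by 1 within 2 kb (Foxq1, 31.8 and 1.96). Over all annotated genes, 3.95% were listed in the RNA-seq table. With 1 mismatch, 10 windows in mESC+ (5.95%, beside 5.56% of all windows) and 10 in mESC- (6.67%, beside 6.36%) held a RARE. The alternatives by nearest start, by any transcript start and all those on shared peaks were chosen after seeing the data. The unknown depth limits every comparison of a listed peak with none.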
